A study of Mus musculus with 2 samples.

Results

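Portal vessel endothelial cells line the branches of the portal vein and hepatic artery that bring blood into the liver lobule. They were picked out by gene counts in single-cell RNA sequencing (scRNA-seq) of liver nonparenchymal cells (NPCs), the liver cells other than hepatocytes. A cell was a member if the endothelial genes Kdr, Ptprb and Pecam1 together made up at least 10 of every 10000 of its unique molecular identifiers (UMIs, 1 per captured RNA molecule) and if Gja5, Nrg1 and Npr3 together gave at least 3 UMIs. Members could hold at most 1 UMI of the central vein genes Rspo3, Wnt9b and Selp, at most 2 of the stellate cell genes Lrat and Reln, and at most 3 of the immune genes Cd79a, Cd3e and Cd5l. The rule gave 334 members among 14567 deposited cells, 246 from the normal library and 88 from the fibrosis library. Because these 14 genes chose the cells, their levels are given only as a description.

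The study asked how liver endothelial cells change in fibrosis. Each library came from 1 male C57BL/6 mouse, 8 weeks old, that was injected i.p. 2 times a week for 6 weeks, with olive oil in the normal and with carbon tetrachloride (CCl4) in olive oil in the fibrosis library. CCl4 is a toxin that kills hepatocytes around the central vein and leads to fibrosis when it is given repeatedly. Cells came from collagenase perfusion, and hepatocytes were removed by centrifugation. With 1 library per condition there is no replicate: no test was made, no p-value is given, and what differs between the libraries differs between 2 animals.

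Blood enters the lobule through portal vessels, passes the sinusoids and leaves through the central vein. Sinusoidal endothelium is fenestrated, lacks an organized basement membrane and takes up waste from the blood through scavenger receptors, whereas portal vessels have a continuous endothelium on a basement membrane with elastic fibres. Arterial endothelium is known for Notch ligands and for connexins that couple neighbouring cells, and several such genes are also used by portal veins in the liver, so the rule can take in cells of both vessels.

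The normal library held 8130 cells with 44062632 UMIs, and the fibrosis library 6437 cells with 53288463 UMIs. A mitochondrial share under 10% and over 200 genes left 7471 and 6132 cells. Of these, 3487 and 2307 passed the endothelial, stellate and immune limits. The 3216 and 2208 endothelial cells with a Gja5, Nrg1 and Npr3 sum of at most 2 are called other endothelial cells. They hold the sinusoidal cells, and 340 and 132 of them with 3 or more UMIs of the central vein genes are called central vein gate cells. Another 25 and 11 cells passed both the portal and the central limits and stayed out of either group. A total of 15 cell barcodes occurred in both libraries, and 2 members carried one of them. Free RNA in the droplets differed between the libraries. It was read in 995 and 470 lymphoid cells, which should lack endothelial and hepatocyte RNA. No limit on endothelial genes was set for these cells, so doublets with endothelial cells may be among them. The level of 10 hepatocyte genes summed to 260 UMIs per 10000 in the lymphoid cells for the normal library and to 29.2 for fibrosis.

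Members made up 7.05% of the endothelial cells in the normal library (95% exact binomial interval 6.23 to 7.96%) and 3.81% (3.07 to 4.68%) in fibrosis. All intervals here are at 95% and cover counting error only. The share depends on a count of raw UMIs and so on depth, and the median depth of other endothelial cells was 4473.5 UMIs for normal and 3621.5 for fibrosis. With a limit of 3 UMIs per 10000 in place of 3 raw UMIs the shares were 8.00% (7.12 to 8.95%) and 6.5% (5.53 to 7.59%), intervals that overlap, and with a mitochondrial limit of 5% they were 15.8% and 5.28%. The share was lower in the fibrosis library under each of these settings.

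Members themselves had like median depths in both libraries, under a raw UMI limit that favours deep cells. They held 2256 to 27302 UMIs with a median of 7010.5 in the normal library and 872 to 24162 with a median of 6886 in the fibrosis library. The median number of genes was 3155.5 and 3049, and the median mitochondrial share 5.24% and 5.28%, against 6.97% and 6.29% in other endothelial cells. The median Scrublet doublet score, which rises for droplets that resemble sums of 2 cells, was 0.0296 and 0.0493.

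Of the 3 genes that chose the members, Nrg1, a growth factor of the EGF family, had a UMI in 236 of 246 normal (95.9%) and 75 of 88 fibrosis members (85.2%). Gja5, which encodes the arterial gap junction protein connexin 40, had one in 201 (81.7%) and 69 (78.4%). Npr3, the clearance receptor for natriuretic peptides, had one in 101 (41.1%) and 44 (50%). All 3 genes were found in 83 (33.7%) and 30 (34.1%) members, and 37 (15%) and 18 (20.5%) passed on a single gene, which was Nrg1 in 30 and 11 of them. In GRCm38 (mm10), Gja5 lies at chr3:96904693-97077416, Nrg1 at chr8:31814551-32884029 and Npr3 at chr15:11839896-11907287.

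The label is described with 4 marker genes that the rule did not use, Adgrg6, Atp13a3, Fbln2 and Ednrb. These markers were chosen with earlier results of these data known, so their levels are not an independent check of the label. Levels are the summed UMIs of a gene per 10000 UMIs of a group of cells. Adgrg6, an adhesion G protein-coupled receptor (chr10:14402583-14545659), was at 11.6 (11.1 to 12.1) in normal and 9.63 (8.85 to 10.5) in fibrosis members, and at 0.718 and 0.461 in other endothelial cells. Atp13a3, a polyamine transporter (chr16:30312423-30405975), was at 15.4 (14.9 to 16.0) and 17.1 (16.0 to 18.1), against 0.614 and 0.502. These are ratios of 16.1 and 20.9 for Adgrg6 and of 25.2 and 34.0 for Atp13a3, and the intervals of members and other endothelial cells lay far apart in both libraries.

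Fbln2, an elastic fibre matrix protein (chr6:91212455-91272540), was at 7.93 (7.53 to 8.34) in normal and 14.8 (13.8 to 15.8) in fibrosis members, and at 0.607 and 0.708 in other endothelial cells. The central vein gate cells held Fbln2 too, at 2.97 and 5.0, so that members stood 2.67 (2.44 to 2.92) and 2.96 (2.67 to 3.29) times above them. Ednrb, the endothelin receptor that clears endothelin from the blood and couples to nitric oxide release (chr14:103814625-103844402), was at 26.2 in both groups of members (25.5 to 27.0 and 24.9 to 27.5). In other endothelial cells it was at 1.56 in normal and 4.76 in fibrosis. Ednrb therefore stood 16.7 times above other endothelial cells in the normal and 5.5 times in the fibrosis library, and the change lay in the other endothelial cells (3.04 times, 2.90 to 3.19), where the central vein gate cells went from 1.62 to 17.0, while the ratio in members was 0.998 (0.942 to 1.06).

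Within the members, all 4 genes were found together in 170 of 246 normal (69.1%) and 62 of 88 fibrosis cells (70.5%), and no member lacked all 4. A single one of them was found in 1 normal and 4 fibrosis members. Each cell was thinned to 1000 UMIs, which left out 0 normal and 1 fibrosis member. Of other endothelial cells it left out 0 normal and 283 of 2208 fibrosis cells, those with the fewest UMIs. Adgrg6 was then found in 69.5% and 64.4% of members, in 5.10% and 3.74% of other endothelial cells and in 0.503% and 1.70% of the lymphoid cells. Without thinning it was found in 99.6% and 90.9% of members. Atp13a3 was found in 65.9% and 64.4% of thinned members and in 7.95% and 10.2% of lymphoid cells, and Fbln2 in 47.2% and 59.8% of members and 0.604% and 0.426% of lymphoid cells. Ednrb was found in 74.4% and 75.9% of thinned members, and the lymphoid cells, which should lack it, gave 2.62% and 13.2%. The median depths of the lymphoid cells were 3173 and 2420 UMIs.

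**Figure D1:**
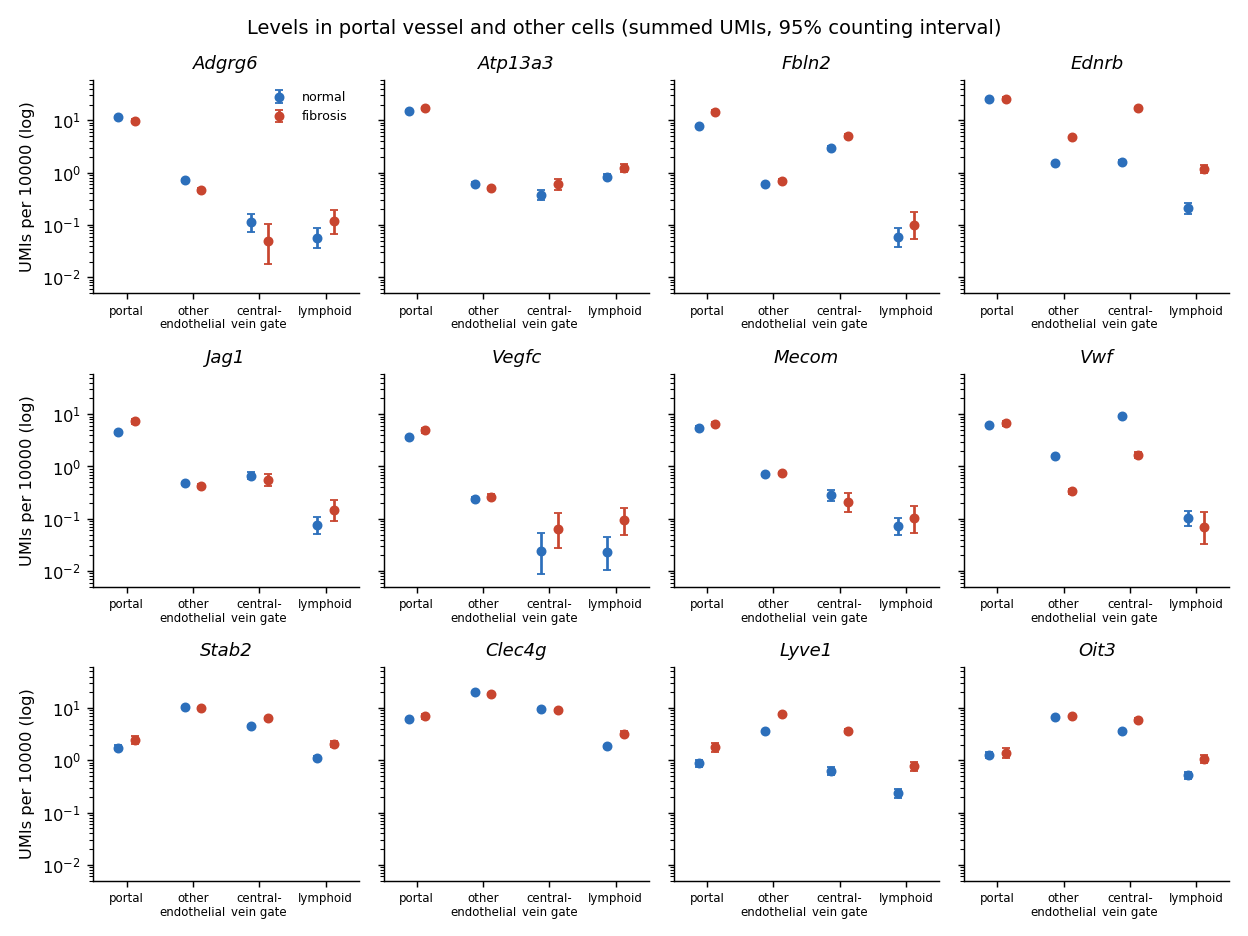
Level (summed UMIs per 10000 UMIs, log axis) of 12 genes in members (portal), other endothelial cells, central vein gate cells and lymphoid cells, with the normal library in blue and the fibrosis library in red; points are group sums and bars their 95% counting intervals. Adgrg6 and Atp13a3 lie at 9.63 to 17.1 in members and below 1 in other endothelial cells of both libraries.

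Cells just outside and just inside the limit of 3 UMIs were compared as a description. These bins, like the members, leave out cells with more than 1 UMI of the central vein genes. In the normal library, the 23 endothelial cells with a sum of 2 had 8.97 UMIs per 10000 of Adgrg6 and 19.2 of Ednrb, and the 21 cells with a sum of 3 had 10.8 and 21.4. In the fibrosis library, the 14 cells with a sum of 2 had 3.66 of Adgrg6 and the 8 cells with a sum of 3 had 6.2. There the order was the other way for Ednrb, at 18.0 with a sum of 2 and 11.9 with a sum of 3, and for Fbln2, at 3.66 and 0.955, while Atp13a3 was at 4.0 and 4.06. Few cells stand behind these values. Cells with a sum of 0 were at 0.587 and 0.479 for Adgrg6 and members with a sum of 12 or more at 13.3 and 11.9. Stab2, a sinusoidal scavenger receptor, was low where the portal genes were high. It went from 11.9 and 10.7 at a sum of 0 to 1.94 and 5.0 at 2 and to 0.794 and 1.43 at 3. The sinusoidal gene Lyve1 was not lower just inside the limit. Fibrosis cells had 8.27 of Lyve1 with a sum of 0, 6.16 with 2, 7.40 with 3 and 0.840 with 12 or more. Normal cells had 4.25, 1.15, 2.17 and 0.779. Clec4g, another sinusoidal gene, was at 6.96 and 13.2 with a sum of 2 and at 5.78 and 8.35 with 3.

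**Figure D2:**
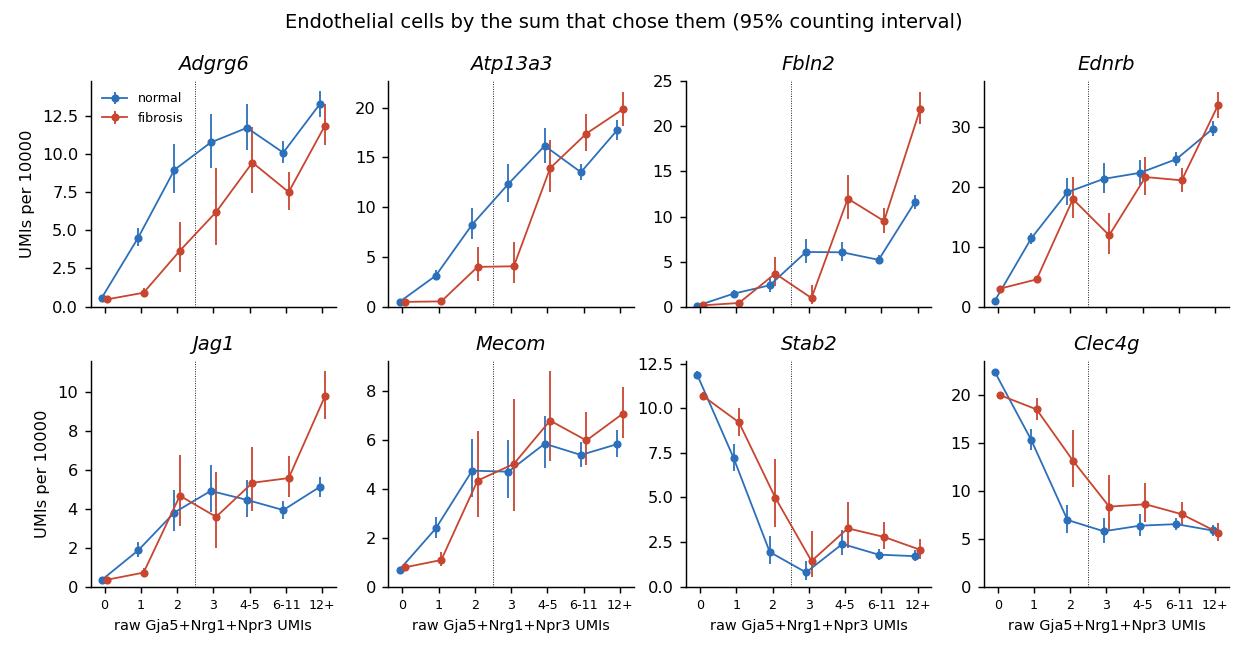
Level (UMIs per 10000) of 8 genes in endothelial cells binned by their raw sum of Gja5, Nrg1 and Npr3 UMIs, without cells over the central vein limit, with the normal library in blue and the fibrosis library in red; bars are 95% counting intervals and the dotted line marks the limit between sums of 2 and 3. Adgrg6 lies below 1 at a sum of 0 and at 13.3 and 11.9 at 12 or more, and Stab2 at 11.9 and 10.7 at a sum of 0 and at 1.71 and 2.06 at 12 or more.

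Across the transcriptome, a gene was called where its ratio was at least 2, or at most 0.5, with an interval that left out 1. Genes needed at least 1 UMI per 10000 in either group of cells in both libraries. Of 2026 genes compared between members and other endothelial cells, 112 were higher in members in both libraries (5.53%) and 75 were lower (3.7%). The median ratio of all genes was 1.05 in normal and 1.0 in fibrosis. As UMIs per cell, a scale on which the deeper members count for more, 207 were higher and 40 lower, with a median ratio of 1.54 and 1.26. Called genes of the lists below kept their direction on that scale, with ratios divided by the median, and with the mean over cells in place of the sum.

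Beyond the 4 markers, the 10 genes with the largest ratios included Col8a1, a short-chain collagen of vessel walls (chr16:57624258-57754737), which was at 1.24 and 3.32 in members against 0.0134 and 0.0317. Its ratios were 92.6 (59.7 to 151) and 105 (73.3 to 153). Cyp1a1, a target of the aryl hydrocarbon receptor, was at 1.89 and 4.46 against 0.0395 and 0.0549, with 19.8% of its UMIs in 1 fibrosis member. The others of the 10 were Ehd2, a membrane coat protein of caveolae, Vegfc, Lmo7, Cmklr1, the receptor for chemerin, and Sdc1, a heparan sulfate proteoglycan, beside Atp13a3, Adgrg6 and Fbln2. Their lower of the 2 ratios ranged from 13.0 for Fbln2 to 92.6 for Col8a1.

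Of 21 arterial and Notch pathway genes listed, 9 reached the level limit, 5 were higher in both libraries (Efnb2, Jag1, Sox17, Vegfc and Tm4sf1) and 0 were lower, with a median ratio of 2.63 and 2.98. Jag1, a Notch ligand (chr2:137081456-137116644), was at 4.53 (4.23 to 4.85) and 7.27 (6.59 to 7.99) in members against 0.476 and 0.416, which is 9.52 and 17.5 times. Vegfc, the ligand of the lymphatic receptor Flt4, was at 3.62 and 4.94 against 0.239 and 0.262. Sox17, a transcription factor of arterial endothelium, was at 3.13 and 4.25 against 0.827 and 0.773. Efnb2, the arterial ephrin, was at 3.10 and 3.17 against 1.18 and 1.06.

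Of the 4 listed arterial genes that were measured and not called, Dll4, another Notch ligand, had ratios of 2.55 and 1.79, Gja4 2.30 and 1.63, and the receptor Notch1 1.55 and 1.45. Nrp1 was at 4.95 and 4.94 in members and 9.58 and 9.28 in other endothelial cells. The arterial markers Bmx and Sema3g were scarce: Bmx was at 0.459 and 0.255 and Sema3g at 0.189 and 0.459 in members, with a UMI in at most 24.4% of them. Of 7 venous genes measured, Vwf and Flrt2 were higher and Nrp2 was lower, though no venous gene was lower as UMIs per cell or with the mean over cells. Nr2f2, the transcription factor of venous endothelium, was at 11.1 and 13.0 in members against 6.36 and 8.24, ratios of 1.75 and 1.58.

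Of 13 transcription factors of endothelial identity measured, 3 were higher in both libraries, and 8 were so as UMIs per cell. Mecom, a zinc finger factor of arterial and stem cell lineages, was at 5.56 and 6.5 in members against 0.707 and 0.750 in other endothelial cells (7.86 and 8.67 times). Klf4 and Id1, which respond to shear stress and to bone morphogenetic protein signals, had ratios of 2.16 and 2.38 and of 2.99 and 2.52. Klf2, also induced by flow, was at 14.2 and 12.5 against 8.22 and 10.4 and was not called. Gata4, the transcription factor of sinusoidal endothelium, was at 2.33 and 1.92 against 2.25 and 2.26.

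**Figure D3:**
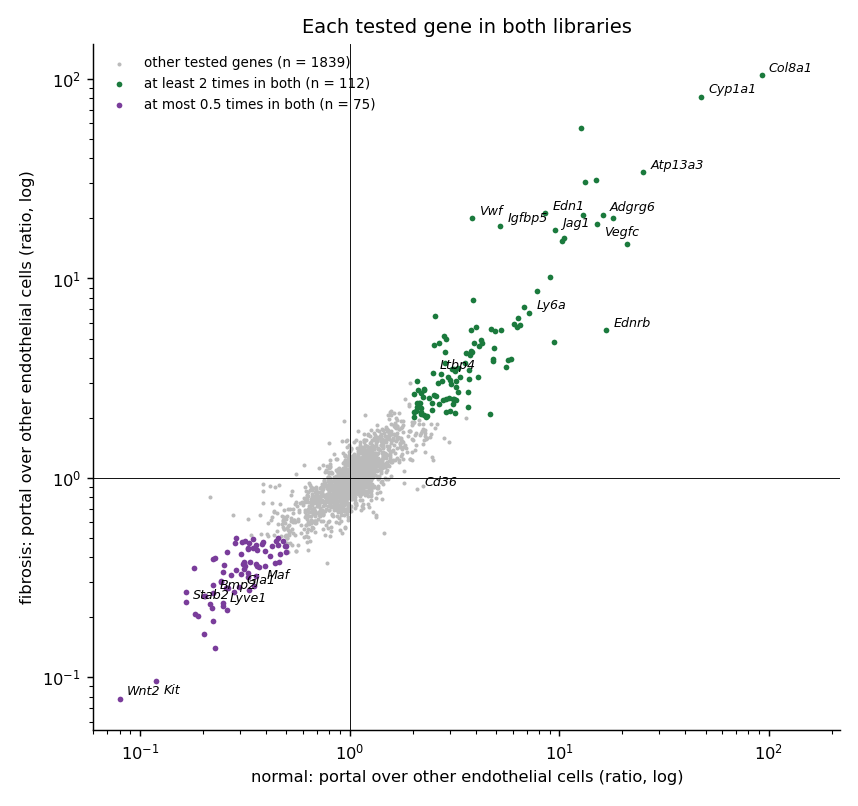
Ratio of members over other endothelial cells for each of the 2026 genes, in the normal library (x axis, log) and in the fibrosis library (y axis, log); green points are the 112 genes at least 2 times higher in both, purple points the 75 at most 0.5 times, and grey points the rest. Col8a1 and Cyp1a1 lie at the upper right, Wnt2 and Kit at the lower left, and Vwf and Igfbp5 above the diagonal, with a larger ratio in the fibrosis library.

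Genes of sinusoidal endothelium were the largest group on the other side. Of 22 listed, 20 were measured and 15 were lower in members in both libraries, while 0 were higher, with a median ratio of 0.364 in both. As UMIs per cell 9 were lower and 1 was higher, and with the mean over cells 12 were lower. Stab2 was at 1.75 (1.57 to 1.95) and 2.43 (2.05 to 2.87) in members against 10.6 and 10.2. Clec4g, a lectin of sinusoidal endothelium, was at 6.18 and 6.91 against 19.9 and 18.7. Fcgr2b, the receptor that removes immune complexes, was at 3.25 and 3.30 against 15.9 and 12.8. These genes were low and not absent in members, and the lymphoid cells, which should lack them, gave 1.11 and 2.05 for Stab2 and 1.85 and 3.25 for Clec4g.

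Lyve1, the hyaluronan receptor, was at 0.886 in normal and 1.77 in fibrosis members, against 3.56 and 7.73 in other endothelial cells, and 27.9% of its UMIs in fibrosis members came from 1 cell. Mrc1, Stab1, Dnase1l3, Gpr182, Oit3, Flt4, Clec1b, Fam167b, Adam23, Ctsl and Maf were the other listed genes that were lower. Msr1, a scavenger receptor, was at 4.11 and 4.27 in members against 3.48 and 4.05. The fatty acid transporter Cd36 was at 11.2 and 12.6 in members, with a ratio of 2.10 (2.0 to 2.20) in the normal and 0.878 (0.814 to 0.945) in the fibrosis library, where other endothelial cells had gone from 5.35 to 14.3.

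Of 8 genes of the central side of the lobule that reached the level limit, 3 were lower, 1 was higher and the others were not called. Those lower were Wnt2, the Wnt ligand that sets the pericentral hepatocyte program, Kit and Plxnc1. Wnt2 was at 0.200 and 0.170 in members against 2.49 and 2.18, and Kit at 0.400 and 0.289 against 3.35 and 3.02. The lymphoid cells were at 0.178 and 0.368 for Wnt2 and at 0.316 and 0.737 for Kit, close to the members in the normal library and above them in fibrosis. Cdh13, T-cadherin, was higher than in other endothelial cells at 3.15 and 2.45 against 1.49 and 0.884, though below the central vein gate cells at 5.20 and 4.75. Id4, Col13a1, Tcn2, Aass and S100a9 were also among the 10 lowest ratios, and S100a9, a neutrophil gene, had 53.1% of its UMIs in 1 normal member.

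Of 15 listed genes of continuous endothelium and its caveolae 10 were measured, and 6 were higher in both libraries: Cd34, Plvap, Cavin1, Cavin2, Ly6a and Cd9. Ly6a was at 26.7 and 27.0 in members against 3.71 and 4.0 in other endothelial cells. Cavin2, which shapes caveolae, was at 24.0 and 32.2 against 11.4 and 13.6, and Plvap, which forms the diaphragms of caveolae, at 6.46 and 6.18 against 2.15 and 1.98. Ly6a belongs to a family of close copies, so counting could mix its reads with those of related genes.

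Of 20 elastic fibre genes listed, 6 were measured and 3 were higher in members in both libraries: Eln, Fbn1 and Ltbp4. Ltbp4, which binds latent TGF-β to the matrix, was at 15.7 and 10.4 in members against 6.27 and 3.10. Fbn1, fibrillin, was at 2.25 and 2.14 against 0.238 and 0.444, and Eln, elastin, at 1.76 and 1.26 against 0.690 and 0.194. In the normal library Eln was higher in the central vein gate cells, at 3.93, whereas in the fibrosis library they were at 0.355. Of 6 basement membrane genes measured, 0 were called in either direction, and Col4a1 had ratios of 0.958 and 0.822. The mesenchymal list had 2 measured genes, and Col5a2, a fibril collagen chain, was higher at 2.23 and 2.60 against 0.378 and 0.658.

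Edn1, the vasoconstrictor endothelin 1 (chr13:42301476-42307990), was at 6.44 (6.08 to 6.81) and 5.14 (4.58 to 5.75) in members against 0.750 and 0.242, which is 8.59 and 21.3 times, and it was the 1 gene called among 9 vasoactive genes measured (4 as UMIs per cell). A UMI of Edn1 was found in 63.8% of normal and 46.6% of fibrosis members, so its level was uneven between cells. Among 8 angiocrine genes measured, Ntn4, Kitl, Pdgfb and Sema3f were higher and Bmp2, which keeps iron uptake in check through hepcidin, was lower at 3.56 and 3.69 against 16.0 and 13.9. Ntn4, netrin 4, was at 12.6 in both libraries against 3.97 and 3.59. Some lists were as high in central vein gate cells. The vasoactive list summed to 36.3 and 32.5 in members and 39.9 and 33.6 in gate cells, and the venous list to 29.6 and 36.1 against 31.1 and 31.1. The other way went the arterial list (50.7 and 59.5 against 22.9 and 25.7) and continuous list (108 and 123 against 62.7 and 82.1). The angiocrine list was at 31.5 and 34.7 against 23.0 and 29.4.

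The remaining lists had few calls. Of 7 junction genes measured, Jam2 was higher and Gja1, connexin 43, was lower at 0.632 and 0.698 against 2.12 and 2.47. Of 4 genes of haemostasis, Tfpi was lower at 1.53 and 1.77 against 3.08 and 3.88, a call that was lost as UMIs per cell and with the mean over cells. Calls numbered 0 among 14 genes of leukocyte adhesion and antigen presentation, 6 interferon genes and 13 immediate early and heat shock genes. As UMIs per cell 2, 1 and 3 of them were higher. Of all 2026 genes compared, 5.53% were higher in both libraries and 3.7% lower. Of 10 cell cycle genes 1 was measured and it was not called, and Mki67 was at 0.168 and 0.102 in members.

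Between the libraries, 2437 genes had at least 1 UMI per 10000 in the members of either. Of these, 108 were higher in fibrosis members (4.43%) and 121 were lower (4.97%), with a median ratio of 1.08. As UMIs per cell 76 were higher and 163 lower, with a median ratio of 0.956. For 78 of the 108 and 115 of the 121 genes, members were at under 2 times the level of the lymphoid cells in the library where the gene was higher. Free RNA and the lymphoid cells' own RNA cannot be told apart at such a level. The 10 hepatocyte genes, at 141 in normal and 15.5 in fibrosis members, were all among the lower ones. A comparison of the 701 genes above that background left 30 higher (4.28%) and 6 lower (0.856%). The condition was read in the library where a gene was higher, so the change itself took part in deciding which genes entered. In the other library 2 of the 30 and 3 of the 6 were under 2 times the lymphoid cells. The counts of 30 and 6 were 17 and 19 as UMIs per cell and 19 and 13 with ratios divided by the median.

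The 30 genes were spread over several functions. In other endothelial cells 29 of the 30 had a ratio above 1, and 12 were called there too. Over all 2437 genes compared, other endothelial cells had 101 higher and 113 lower, with a median ratio of 1.09, so a ratio above 1 was common there. The ratio in members was at least 2 times that in other endothelial cells for 5 of them, Igfbp5, Cyp26b1, Siglech, Gdap10 and Mbd1. Some of these were uneven among the groups of members described below. Cyp26b1 was among the leading genes of a normal group with sinusoidal genes (1.07 against 0.284 in the other members). Gdap10 was among those of a fibrosis group with sinusoidal genes (1.78 against 0.529). The part of the mix of groups in these ratios was not tested. Siglech and Gdap10 were below the lymphoid cells in the normal library (0.0919 against 0.114 and 0.238 against 0.362) and passed the background condition through the fibrosis library alone, so their place among the 30 follows from their change. For 23 of the 30, the level in fibrosis members was also above that in the other endothelial cells of the same library.

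Igfbp5, an insulin-like growth factor binding protein (chr1:72857932-72874884), had the highest level among those 5. It was at 5.44 (5.11 to 5.79) in normal and 15.8 (14.8 to 16.9) in fibrosis members, a ratio of 2.91 (2.65 to 3.18), while other endothelial cells were at 1.04 and 0.860. A UMI was found in 36.6% and 55.7% of members. The single cell with the most UMIs gave 21.3% of the normal and 18.6% of the fibrosis sum, and the ratio was 2.77 without the 3 top cells of each group. Cyp26b1, which degrades retinoic acid, was at 0.486 and 1.99 in members, against 2.26 and 2.48 in other endothelial cells. Siglech, a lectin of plasmacytoid dendritic cells, had 30.3% of its fibrosis UMIs in 1 member, and its ratio of 16.5 went to 3.29 (0.793 to 12.9) without members that held leukocyte genes.

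The list of leukocyte adhesion and antigen presentation held 2 of the 30. Vcam1, which holds leukocytes on endothelium, was at 2.10 (1.89 to 2.32) and 5.94 (5.33 to 6.6) in members, a ratio of 2.83 (2.44 to 3.28), and at 1.28 and 3.29 in other endothelial cells. Irf1, a transcription factor of the interferon response, was at 2.65 and 5.48, a ratio of 2.07 (1.79 to 2.39). These were the calls among 7 genes of that list above background, and the call of Irf1 was lost under 4 of 13 alternative settings. The list held 1 higher gene as UMIs per cell, 1 with ratios divided by the median and 4 with the mean over cells. In the lymphoid cells Vcam1 was at 0.171 and 2.19 and Irf1 at 1.11 and 1.60. The part of free RNA in the ratio of Vcam1 was not tested.

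Cd34 was at 1.45 (1.28 to 1.63) and 3.30 (2.85 to 3.8), a ratio of 2.28 (1.89 to 2.75), while in other endothelial cells it was at 0.259 and 0.914, a ratio of 3.53 (3.15 to 3.96). Ly6c1 was at 0.784 and 1.68, with the call of Ly6c1 lost under 5 of 13 alternative settings. Cd34 and Ly6c1 were the calls among 11 continuous endothelium genes above background. Ly6c1 has a near-identical neighbour in Ly6c2, and its value is uncertain for that reason. Flrt2, a membrane protein that repels and adheres to neighbouring cells, was at 2.30 and 5.68, and Emcn, a sialomucin of venous and capillary endothelium, at 1.28 and 2.88. These 2 were the venous genes called of 5 above background. Emcn had a ratio of 1.18 in other endothelial cells, and Flrt2 one of 2.31.

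Col8a1, already far above other endothelial cells, went from 1.24 (1.08 to 1.41) in normal to 3.32 (2.87 to 3.82) in fibrosis members, a ratio of 2.68 (2.20 to 3.26). Serpinh1, the collagen chaperone, was at 1.79 and 5.07, with the same course in other endothelial cells (1.48 and 4.08). Pcdh17, Adamts1, Adam15 and Anxa2 were also higher, by 2.44, 2.05, 2.08 and 2.02 times in members and by 2.58, 2.25, 1.90 and 2.03 times in other endothelial cells. Adamts1, Adam15 and Anxa2 lay just past the limit of 2, and their calls were lost under 5, 5 and 6 of 13 alternative settings. Csf1, the macrophage growth factor and the 1 angiocrine gene called of 7, was at 0.443 and 1.09, with 20.3% of the fibrosis UMIs in 1 cell and a ratio of 1.88 without the 3 top cells. Without those cells Cyp1a1 had a ratio of 1.56 in place of 2.36.

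The 6 genes that were lower and above background were Spp1, AU021092, Cyp4b1, Gm13889, Arpc1a and F8. Of these, Spp1, Cyp4b1 and Arpc1a passed the background condition through the normal library alone, and in fibrosis members they were at 1.53, 0.630 and 0.545 against 3.63, 0.415 and 0.509 in the lymphoid cells. F8, coagulation factor VIII, which liver endothelium makes for the blood, was at 5.38 (5.05 to 5.72) in normal and 2.67 (2.27 to 3.12) in fibrosis members, a ratio of 0.497 (0.417 to 0.589), and at 8.24 and 4.86 in other endothelial cells. Its ratio lay just past the limit of 0.5, and the call was lost under 6 of 13 alternative settings, with 0.604 at the mitochondrial limit of 5%. Spp1, osteopontin, had 44.8% of its normal UMIs in 1 member, and without the 3 top cells its ratio of 0.322 turned to 2.33. F8 and Anxa2 were the calls among 3 haemostasis genes above background, in opposite directions. Clu, clusterin, the 1 call among 7 elastic matrix genes, was lower at 6.35 and 3.15, which was under 2 times the lymphoid cells in the normal library (3.25).

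**Figure D4:**
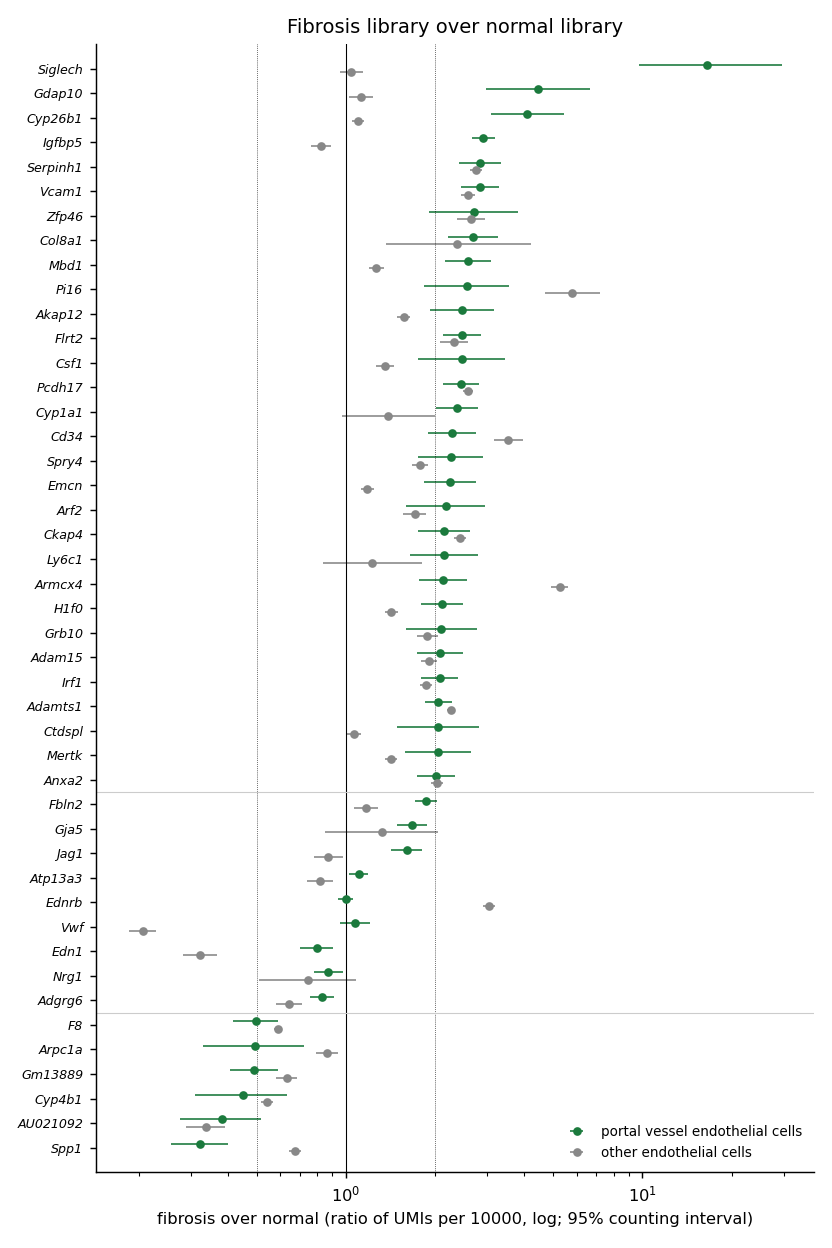
Ratio of fibrosis over normal (log axis) in members (green) and other endothelial cells (grey) for the 30 higher genes above background at the top, 9 genes higher in members than in other endothelial cells in the middle, of which Gja5 and Nrg1 belong to the rule, and the 6 lower genes at the bottom; bars are 95% counting intervals, and lines mark ratios of 0.5, 1 and 2. Igfbp5 lies at 2.91 in members and 0.826 in other endothelial cells, and Vwf at 1.07 and 0.206.

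Vwf and Edn1 were not called between the members of the 2 libraries, while both were lower in the other endothelial cells of the fibrosis library. Vwf, von Willebrand factor (chr6:125546774-125686679), was at 6.21 (5.86 to 6.58) and 6.67 (6.03 to 7.37) in members, a ratio of 1.07 (0.956 to 1.21). In other endothelial cells it was at 1.61 and 0.333, a ratio of 0.206 (0.185 to 0.229), and in central vein gate cells at 9.38 and 1.65. Edn1 had a ratio of 0.799 (0.701 to 0.907) in members and 0.323 (0.282 to 0.367) in other endothelial cells. The members' excess over other endothelial cells for Vwf was thus 3.85 times in the normal and 20.1 times in the fibrosis library.

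Ltbp4 of the elastic fibre list and Dll4 of the arterial list had lower values in the fibrosis library, with ratios of 0.665 (0.609 to 0.726) and 0.577 (0.463 to 0.712) in members and 0.494 and 0.825 in other endothelial cells, and neither met the limit of 0.5. Jag1 had a ratio of 1.60 (1.42 to 1.80) in members and 0.873 in other endothelial cells, and Fbln2 one of 1.87 (1.72 to 2.03) and 1.17. Of the 4 portal markers and 9 arterial genes measured, 0 were called in either direction, with median ratios of 1.05 and 1.16. Of all 2437 genes compared, 4.43% were higher and 4.97% lower, so few calls would fall in lists this short. The basement membrane genes had a median ratio of 1.81 in members and 1.79 in other endothelial cells, among them Col4a1 at 4.84 and 9.29 and Sparc at 8.98 and 16.0 in members. Of 7 above background 0 were called, though 1 was lower as UMIs per cell and 1 with the mean over cells. Lamc1, a laminin chain, was at 0.605 and 1.57 and was called without that condition.

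Other differences were in genes at under 2 times the level of the lymphoid cells. Col1a1 and Col1a2, fibrillar collagen genes, were at 0.0378 each in normal and at 1.41 and 2.37 in fibrosis members, below the lymphoid cells of the fibrosis library at 2.53 and 3.77, and 1 cell held 34.9% and 38.8% of those UMIs. Of 6 mesenchymal genes compared, these 2, Col3a1 and Fn1 were higher, and 0 of 2 above background were called. The heat shock gene Hspa1a was at 6.71 and 1.75 in members and at 4.93 and 0.619 in lymphoid cells. It has a near-identical neighbour, Hspa1b. Of 14 genes of the immediate early and heat shock list, the immediate early gene Nr4a1 was higher. The heat shock genes Hspa1a and Hspa1b were lower, and 0 of 7 genes of the list above background were called. No gene of the sinusoidal, arterial, junction, vasoactive or interferon lists was called in either direction. These lists held 18, 9, 7, 10 and 6 of the genes compared. Of all 2437 genes compared, 4.43% were higher and 4.97% lower, so few calls would fall in lists of this size. With the mean over cells 1 arterial gene was lower and 1 sinusoidal gene was higher among those above background.

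The 10 largest ratios by the rule for named genes, which asked for a log2 ratio at least 1 away from that in another set of 1174 and 478 lymphoid cells, were Cxcl2, Gdap10, Cd44, Hsph1, Sirpa, C1qb, Lrp1, Sgk1, Lgmn and Serpinh1. In 7 of them, all but Gdap10, Sgk1 and Serpinh1, the level in fibrosis members was below that in lymphoid cells of that library. Cxcl2, a neutrophil chemokine, was at 1.07 against 2.18, and C1qb, a complement gene of macrophages, at 1.68 against 2.51. Sgk1, a kinase induced by corticosteroids and stress, was at 4.49 and 13.9 in members, against 8.89 in the lymphoid cells and 25.1 in other endothelial cells of the fibrosis library. The 10 smallest ratios were those of Ndrg2, Pigr, Cyp2f2, Pzp, Hspa1b, Cetn3, Cyp4b1, Gm13889, Arpc1a and F8, and of these Ndrg2, Pigr, Cyp2f2 and Pzp were lower in normal members than in normal lymphoid cells.

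Genes of other cell types were also found in members. The 8 Kupffer cell genes summed to 2.62 UMIs per 10000 in normal and 11.7 in fibrosis members, against 5.84 and 23.4 in lymphoid cells. The 8 monocyte genes summed to 5.06 and 10.5 (lymphoid cells 9.67 and 13.3) and the 8 lymphoid genes to 2.07 and 3.00 (69.5 and 65.1), with Cd3g at 0 in fibrosis members. The stellate cell genes summed to 1.79 and 4.37 and the fibroblast genes to 0.848 and 3.27, with Mfap4 and Dpep1 at 0 in normal members. The fibroblast gene Pi16 was one of the 30 higher genes above background. It was at 0.459 and 1.17 in members against 0.0129 and 0.149 in lymphoid cells, with ratios of 2.56 in members and 5.80 in other endothelial cells. For smooth muscle, which surrounds portal vessels, 4 of 8 genes had a UMI in each library, the sum was 0.0648 and 0.340, and Cnn1, Actg2, Lmod1 and Kcnmb1 were at 0.

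The 8 cholangiocyte genes summed to 6.13 and 1.92, of which Spp1 made up 4.76 and 1.53. The 6 mesothelial genes summed to 1.96 and 0.374, with Msln and Upk3b at 0 in fibrosis members. The 6 lymphatic endothelial genes summed to 4.01 and 4.95, against 11.8 and 17.5 in other endothelial cells, with Ccl21a at 0 in normal members, and Lyve1 and Flt4 of this list are shared with sinusoids. The 5 erythroid genes summed to 18.5 and 0.476 and the 4 neutrophil genes to 1.01 and 0.494. Of these lists, the sums of the hepatocyte, Kupffer cell, monocyte, lymphoid, fibroblast, erythroid and neutrophil genes were lower in members than in lymphoid cells in both libraries. Their part in the differences between the libraries was not tested.

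Members varied among themselves. Clustering of each library's members without the genes of the rule gave 4 groups of normal and 3 groups of fibrosis members, which were left without names. Sizes were not compared between libraries, since the groups came from separate clusterings. In the normal library, group 1 with 87 cells was led by Lox, a collagen and elastin crosslinking enzyme (1.03 against 0.202 in the other members), and had the highest Atp13a3 (24.2 against 10.5) and Gja4 (6.2 against 3.12). Its Fbln2 was at 11.2 against 6.09, its Ednrb at 35.8 against 20.9 and its Stab2 at 0.862 against 2.24.

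Group 2 with 65 cells was led by Cd200, an immune checkpoint ligand (1.42 against 0.343), and Fbln5, an elastic fibre protein (1.83 against 0.686), followed by hepatocyte genes such as Cyp2e1. Its Vwf was at 8.86 against 5.49. Group 3 with 52 cells was led by Cxcl9 (1.78 against 0.240), a chemokine induced by interferon γ, and by sinusoidal genes, with Dnase1l3 at 9.01 against 3.67, Stab2 at 2.93 against 1.34 and Kdr at 8.97 against 5.0. Cxcl10 was at 4.17 against 1.70 there. The 42 cells of group 4 were led by leukocyte genes, Ptprc at 3.01 against 0.372 among them, with Lyz2 at 7.47 against 0.379 and a median doublet score of 0.0534. Whether each of these is a single portal cell was not tested, and they remain in all values of members given here.

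In the fibrosis library, group 1 with 44 cells was led by the sinusoidal genes Fam167b and Adam23 (3.92 against 1.03), with Dnase1l3 at 8.33 against 2.62, Kdr at 10.8 against 6.17 and a median of 4332 UMIs. Group 2 with 36 cells was led by Stmn2, a microtubule regulator (1.32 against 0.0283), and Col8a1 (7.30 against 0.679). It was high in Fbln2 (23.0 against 9.34), Vwf (10.6 against 4.05) and Atp13a3 (26.2 against 11). Most of the Col8a1 of fibrosis members thus came from these 36 cells. The 8 cells of group 3 had a median of 14485 UMIs, a median doublet score of 0.108 and Lyz2 at 14.7 against 2.39, and the same holds for them. In both libraries, one group was high in Atp13a3, Fbln2 and Col8a1 and another high in Dnase1l3, Adam23 and Kdr. Without cells that held over 2 UMIs of leukocyte genes, 221 and 71 members were left, and 113 genes were higher and 88 lower than in other endothelial cells, 106 and 70 of them shared with the calls from all members.

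**Figure D5:**
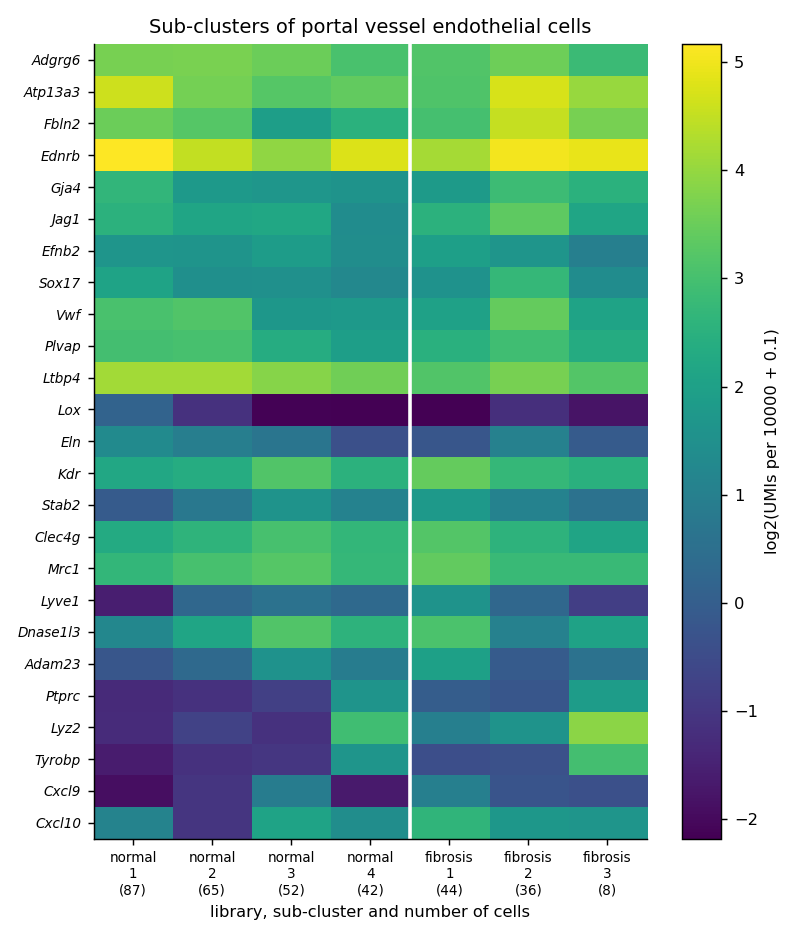
Level of 25 genes (rows) as log2(UMIs per 10000 + 0.1), shown by colour, in the groups of members found by clustering (columns, with the number of cells), 4 from the normal library and 3 from fibrosis. Group 1 of the normal and group 2 of the fibrosis library have the most Atp13a3, at 24.2 and 26.2 UMIs per 10000, and group 4 of the normal and group 3 of the fibrosis library the most Lyz2, at 7.47 and 14.7.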

How the data were processed

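Liver NPCs of 1 olive oil-treated and 1 CCl4-treated mouse were profiled by scRNA-seq with 10x Chromium 3′ reagents. The authors aligned reads to mm10 with Cell Ranger 3.0.1 and deposited UMI counts per gene and cell, neither normalized nor filtered for mitochondrial reads. All columns used were mapped to a library. The methods state that doublets were excluded. Scrublet, run here in scanpy with an expected rate of 0.06, called 4 normal and 0 fibrosis cells, and none was removed.

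The members, gene lists and comparisons were chosen with earlier results of these data known. The lymphoid cells used as background were chosen after seeing the data: at least 3 UMIs and 10 UMIs per 10000 of Cd79a, Cd79b, Cd3e and Cd3g, with no limit on endothelial genes. So were the comparison of genes at least 2 times above them and the removal of members with over 2 UMIs of Ptprc, Cd79b, Cd3g, Nkg7, Csf1r and Tyrobp.

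Counts were summed over cells. Levels have exact Poisson, ratios exact conditional and shares exact binomial intervals (95%, counting error only). The comparisons left out genes of the rule and those for mitochondrial RNA, ribosomal proteins and haemoglobin, and genes needed at least 1 UMI per 10000. Named genes are those of the lists, the 10 largest and 10 smallest ratios over other endothelial cells, and the 10 largest and 10 smallest called ratios of fibrosis over normal whose log2 ratio lay at least 1 from that in another set of lymphoid cells (at least 3 UMIs of the same genes, with Kdr and Ptprb under 10 UMIs per 10000), with at least 30 UMIs and at most 20% of them in 1 cell. Genes above background that no list or rank holds were named after their values were seen. To find groups of members, counts were scaled to 10000, transformed as ln(1 + x) and clustered with 2000 variable genes, 10 principal components, 15 neighbours and Leiden at a resolution of 0.6. GENCODE for GRCm38 gave the gene positions and held 447 of 447 symbols.

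Libraries were simulated with Poisson counting error only and 200 genes changed well past the limit for a call. Of these, 200 of 200 were recovered among 2026 genes for members over other endothelial cells in either library. For fibrosis over normal members 200 of 200 were recovered among 2437, and 1 unchanged gene was called. Spread between cells or animals was not simulated, so this does not cover calls near the limit or carried by few cells. Analysis ran in Python 3.11.15 with numpy 2.4.6, pandas 2.3.3, scipy 1.17.1, scanpy 1.11.5, anndata 0.12.19, leidenalg 0.10.2, igraph 0.11.9 and matplotlib 3.10.9.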

Additional observations from a re-analysis of the deposited data

How the results depend on the processing

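The share of members among endothelial cells was lower in the fibrosis library under every limit tried. It was 5.97% and 2.99% with a sum of at least 5 for Gja5, Nrg1 and Npr3, 8.00% and 6.5% with at least 3 UMIs per 10000, 15.8% and 5.28% at a mitochondrial limit of 5%, 9.73% and 5.18% in cells of at least 3000 UMIs, and 4.77% in the fibrosis library with an endothelial limit of 20. Members against other endothelial cells gave 207 higher and 40 lower genes as UMIs per cell, and 300 and 266 with no minimum level. Fibrosis against normal members gave 690 and 673 with no minimum level, and 30 and 6 above background. Of genes above background, those higher numbered 17 as UMIs per cell, 19 with ratios divided by the median and 166 with no minimum. Those lower ranged widely: 3 with a sum of at least 2, 12 with 3 UMIs per 10000, 18 at a mitochondrial limit of 5%, 3 in cells of at least 3000 UMIs, 16 with the mean over cells, 19 as UMIs per cell, 13 with ratios divided by the median, 79 with no minimum, 19 without the 3 top cells of a gene and 10 without cells with leukocyte genes. The cause was not tested. Of 520 values for single genes against other endothelial cells, 517 kept their call and the 3 that did not were of S100a9. Of 650 for fibrosis against normal members, 572 kept their call, 75 lost it and 3 turned, all of Spp1: 1.92 at the mitochondrial limit of 5%, 2.29 without the highest doublet scores and 2.33 without the 3 top cells. No paired analysis was possible because there is 1 library per condition, and for the same reason no replicate could be left out. Depth limits genes under 1 UMI per 10000, most of all in the 88 fibrosis members.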
